A study of Mus musculus with 24 samples.

Results

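The tumours of each treatment group differed among themselves in how much T cell RNA they held, and the 12 T-cell-rich tumours are set here against the 12 T-cell-poor tumours of the same 4 treatments, which together are all 24 tumours of the series. In each treatment the 6 tumours were ranked by the summed level of Cd3d, Cd3e and Cd3g, the genes of the CD3 chains that carry the signal of the T cell receptor, and the top 3 were selected as rich and the bottom 3 as poor. The tumours were thus chosen by their measured CD3 levels. Levels are CPM, the reads of a gene as a share of all reads counted in that tumour, scaled to the same total in every library. The RNA came from D4M tumours, a transplanted mouse melanoma line, grown in C57BL/6 WT mice. One group was given an antibody to the checkpoint receptor PD-1 (PD-1), another brequinar with the control antibody IgG2a (BRQ+IgG2a), another both brequinar and the PD-1 antibody (BRQ+PD-1), and the last the IgG2a antibody alone (IgG2a), all by i.p. injection; the labels give no dose and no day. Brequinar (BRQ) inhibits dihydroorotate dehydrogenase, the enzyme of pyrimidine synthesis encoded by Dhodh. The study set out to see what brequinar and anti-PD-1 do together in the tumour environment, and the ranking asks what differed among tumours that had the same treatment.

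T cells recognise peptides held by MHC molecules on other cells. Activated T cells and natural killer cells release interferon gamma, which acts on tumour and stromal cells and raises genes for peptide processing, MHC molecules, guanylate-binding proteins and the chemokines CXCL9 and CXCL10. Those chemokines bind CXCR3 on T cells, and PD-L1, encoded by Cd274, is another gene that interferon gamma raises.

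Library totals ran from 21847944 to 34282319 counts in rich tumours and from 19106205 to 29031937 counts in poor tumours. Mitochondrial genes took 1.202 to 1.902% of counts in rich tumours and 1.112 to 2.125% in poor tumours. Of the melanocyte markers, Mitf had a median of 13.7 CPM in rich and 16.7 CPM in poor tumours, Pmel stayed under 2 CPM throughout, and Sox10 had no count in 9 of the 24 tumours. Skeletal muscle transcripts set 4 libraries apart: IgG2a replicates 2 and 3, PD-1 replicate 6 and BRQ+IgG2a replicate 4 held 4171 to 14072 CPM of the muscle actin Acta1, against at most 439 CPM in the other 20. Of these 4 tumours, 3 were rich and 1 was poor. Summed over Acta1, Ckm and Myh4, the level was 0.398, 109 and 25300 CPM in rich tumours (lowest, median and highest) and 0.0368, 6.49 and 7960 CPM in poor tumours. All 16 tested genes of the muscle list had a positive fold change (median log2 3.30). None was called by edgeR or limma voom and 0 had an unadjusted p under 0.05 in edgeR, while DESeq2 called 7. Ckm had no count in 4 tumours and Myh4 none in 5. Beside the values of all 24 tumours, the text gives the list counts of the 20 others for lists with called members, and says which named genes outside the T cell lists lost their call there.

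In IgG2a, the rich tumours held 15.4, 7.35 and 5.96 CPM of the 3 CD3 genes together and the poor tumours 4.86, 3.53 and 3.43 CPM. PD-1 tumours held 20.1, 12.4 and 10.2 CPM when rich, and 7.85, 7.83 and 6.48 CPM when poor. Brequinar with IgG2a had the highest values, 53.8, 37.8 and 26.4 CPM in its rich tumours and 19.96, 16.3 and 5.94 CPM in its poor tumours. The ranking therefore separates tumours inside a treatment and not across treatments, since 2 of the 3 poor BRQ+IgG2a tumours held more CD3 RNA than every rich IgG2a tumour. With both drugs the rich tumours held 29.8, 24.2 and 17.1 CPM and the poor tumours 13.8, 10.9 and 4.04 CPM. Rich tumours averaged 2.43-fold more than poor tumours under IgG2a, 1.93-fold under PD-1, 2.79-fold under BRQ+IgG2a and 2.47-fold under BRQ+PD-1. These values chose the tumours and are given as a description. They rest on 91 to 1245 counts per tumour.

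**Figure D1:**
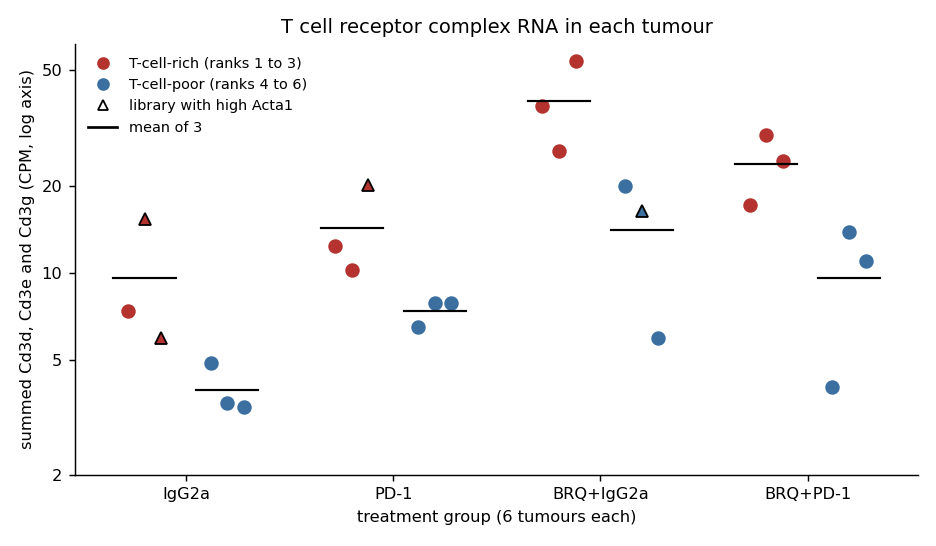
Summed CPM of Cd3d, Cd3e and Cd3g in each of 24 tumours (log axis) by treatment group, rich tumours in red at the left and poor tumours in blue at the right of each pair; bars are means of 3 and triangles mark the 4 libraries with high Acta1. The gap between the third and the fourth tumour of a treatment was 5.96 CPM (rich) against 4.86 CPM (poor) in IgG2a and 26.4 CPM (rich) against 19.96 CPM (poor) in BRQ+IgG2a.

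The groups lie close to each other where they were divided. Rank 3 stood 1.23 times as high as rank 4 under IgG2a, 1.30 times under PD-1, 1.32 times under BRQ+IgG2a and 1.24 times under BRQ+PD-1. Of the variance of the log2 CD3 level over all 24 tumours, 41.2% lay between treatments, 36.7% between rich and poor tumours of the same treatment and 22.1% among tumours ranked alike. Ranking by Trac, Trbc1 and Trbc2, the constant regions of the receptor itself, put 24 of 24 tumours in the same class, and ranking by TMM-scaled CPM also did so for 24 of 24. The 3 CD3 genes are neighbours on chromosome 9. In GRCm38.p6 the start of Cd3g lies 1355 bases and that of Cd3e 27825 bases from the start of Cd3d.

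Other T cell genes come from the same cells as the RNA that ranked the tumours, so their values and counts are a description from which nothing is read. The background was 7.25% of 16029 tested genes called in either direction, which is 1162 genes. In the 20 tumours without high Acta1, 334 genes were called, and 335 with the mean level of the muscle genes as a covariate. List counts from those fits therefore have a smaller background than 7.25%. Beside the 3 ranking genes, the list of the T cell receptor, its coreceptors and its signalling had 25 members, of which 24 were higher in rich tumours at an adjusted p under 0.05 and none was lower, with a median log2 fold change of 1.05; 11 were called in the 20 tumours without high Acta1. Cd8a, the coreceptor of cytotoxic T cells, had 3.37, 13.4 and 40.5 CPM in rich tumours and 1.48, 5.05 and 15.7 CPM in poor tumours. Lck, the kinase that starts receptor signalling, had 2.58, 8.73 and 20.2 CPM in rich tumours against 2.17, 4.37 and 10.2 CPM in poor tumours. The ranges overlapped for both genes across treatments, while inside a treatment all rich tumours lay above all poor tumours in 3 of 4 treatments for Cd8a and in 1 of 4 for Lck. In these bulk libraries, fewer T cells and less RNA per T cell cannot be told apart.

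Among 21 genes of cytotoxic lymphocytes, 12 were higher in rich tumours and none was lower, at a median of 0.90 (log2 fold change), and 5 were higher in the 20 tumours. Gzmb, a granzyme, averaged 8.66 ± 4.31 CPM in rich and 4.35 ± 1.82 CPM in poor tumours (SD, n = 12 each), and the pore-forming protein gene Prf1 averaged 11.2 ± 8.99 CPM in rich and 5.54 ± 2.70 CPM in poor tumours. Ifng, the gene of interferon gamma itself, averaged 1.59 ± 1.198 CPM in rich tumours against 0.606 ± 0.451 CPM in poor tumours, a log2 fold change of 1.45 ± 0.38 (SE). Gzmd and Gzmf of the same list ran the other way, with fold changes of -1.26 ± 0.52 and -0.76 ± 0.47.

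Of 15 checkpoint and exhaustion genes, 7 were higher and 2 lower, with 4 and 1 in the 20 tumours. Pdcd1, which encodes PD-1, averaged 6.84 ± 4.32 CPM in rich and 3.08 ± 1.5 CPM in poor tumours. Lag3 and Tigit, which encode inhibitory receptors, lay higher in every rich than in every poor tumour of all 4 treatments, with log2 fold changes of 1.15 ± 0.19 and 0.99 ± 0.18. The members called lower were Rgs16 and Nr4a2. Rgs16, a brake on G protein signalling, averaged 81.8 ± 31.6 CPM in rich and 177 ± 66.9 CPM in poor tumours. The nuclear receptor gene Nr4a2 averaged 12.7 ± 5.36 CPM in rich and 25.6 ± 13.9 CPM in poor tumours. Cells other than T cells also use genes of this list, higher and lower, and the source of the RNA was not tested. For Rgs16 every rich tumour lay below every poor tumour of its treatment in all 4 treatments.

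Of 11 regulatory T cell genes, 5 were higher and 1 was lower, and 4 and 0 in the 20 tumours. Foxp3, the transcription factor that defines these cells, averaged 2.62 ± 1.43 CPM in rich and 1.12 ± 0.705 CPM in poor tumours, and Il2ra, the alpha chain of the interleukin 2 receptor, averaged 3.94 ± 2.25 CPM in rich and 2.04 ± 1.01 CPM in poor tumours. Foxp3 and Il2ra were named after their values were seen. Areg, an EGF receptor ligand that many tissues make, was the lower member, at 11.5 ± 9.86 CPM in rich and 17.8 ± 8.91 CPM in poor tumours. Il1rl1, Capg and Ikzf2, also among the 4 most abundant members, were not called. Il1rl1 averaged 57.4 ± 17.4 CPM in rich and 113 ± 68.7 CPM in poor tumours, and was lower in each of the 4 treatments. Capg averaged 328 ± 42.8 CPM in rich and 350 ± 42.9 CPM in poor tumours. Ikzf2 averaged 14.85 ± 2.84 CPM in rich and 13.7 ± 3.12 CPM in poor tumours. Of 9 naive and memory genes, 1 was higher and 1 lower (1 and 0 in the 20 tumours): Ccr7, a homing receptor, averaged 6.36 ± 2.90 CPM in rich and 3.66 ± 1.70 CPM in poor tumours, while Tcf7, a transcription factor, averaged 37.0 ± 7.86 CPM in rich and 45.7 ± 9.29 CPM in poor tumours.

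Ratios between T cell transcripts describe the makeup of the T cell RNA, and 5 were computed, with the ranks permuted inside each treatment over all 160000 assignments (exact, two-sided) and adjustment over the 5. No gene of these ratios was used to rank the tumours, but all come from the T cell lists. Cd8a, Foxp3 and Prf1 also rose with the ranking (log2 fold changes of 1.12, 1.27 and 0.82), and Cd4 rose less (0.56). The p-values of ratios between these genes are therefore a description and do not test a change in T cell makeup. No p is given for the ratios to Trac, which follows the ranking. The ratios are compared as differences of log2 ratios with 0.1 CPM added to each level. The Cd8a to Cd4 ratio had a log2 value of -0.24, 0.65 and 1.54 in rich tumours against -0.62, 0.14 and 1.05 in poor tumours. It was 0.60 higher in rich tumours (exact permutation p = 0.0196, adjusted 0.0327), and lay above the mean of its treatment in 10 of 12 rich and 3 of 12 poor tumours. Cd4 RNA is not confined to T cells in mice, since some dendritic cells carry it. In the 20 tumours the difference was 0.49 with an adjusted p of 0.15. It also missed the threshold in 11 of the 24 fits that left out 1 library (IgG2a 2, 5 or 6, PD-1 2 or 6, BRQ+IgG2a 5 or 6, BRQ+PD-1 1, 2, 4 or 6), at 0.52 to 0.59.

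The Foxp3 to Cd4 ratio was -2.59, -1.53 and -0.92 in rich tumours against -3.24, -2.29 and -1.46 in poor tumours. That is 0.65 higher in rich tumours (exact permutation adjusted p = 0.0125), in the same direction in all 4 treatments and called in all 24 fits without 1 library. The adjusted p was 0.0569 in the 20 tumours and 0.0861 with 1 CPM added in place of 0.1, where the difference was 0.26. Prf1 to Cd8a differed by -0.41 (adjusted p = 0.0619), and passed the threshold in 5 fits without 1 library (PD-1 3 or 5, BRQ+IgG2a 2 or 4, BRQ+PD-1 5) and without ranks 3 and 4, at -0.68 (0.0232). Pdcd1 to Trac differed by -0.31 and Tcf7 to Trac by -1.599. Trac had a log2 fold change of 1.25 ± 0.19 and Tcf7 of -0.33 ± 0.10, so these ratios are not independent of how the tumours were chosen and are a description.

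**Figure D2:**
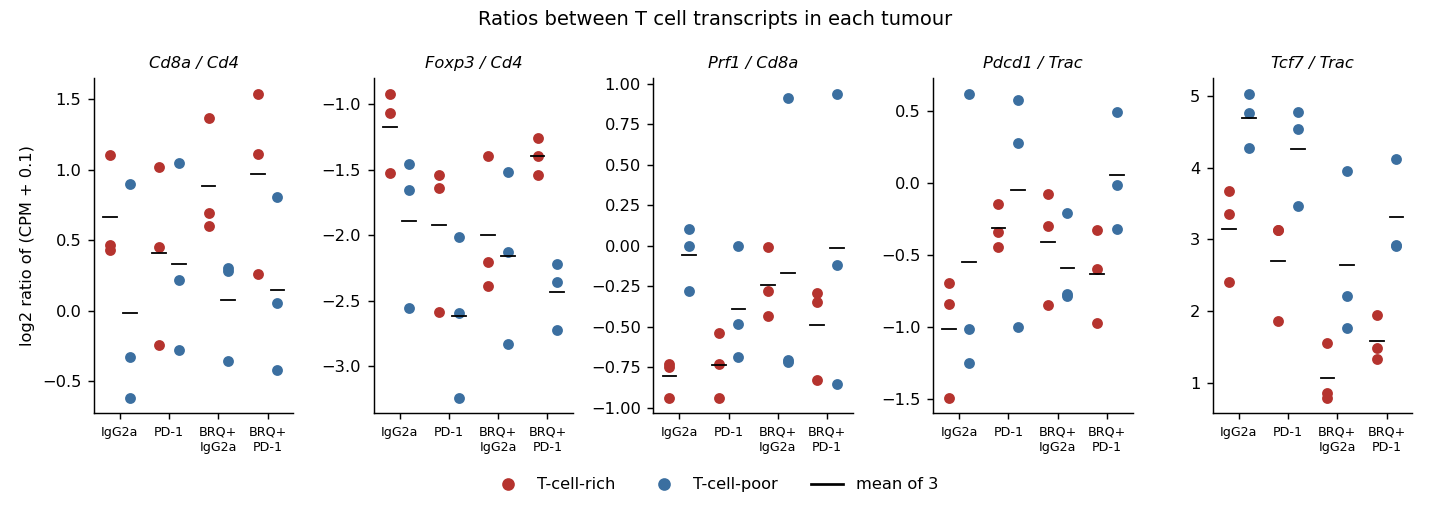
Log2 ratios of (CPM + 0.1) between pairs of genes of the T cell lists in each of 24 tumours, by treatment. Rich tumours are in red at the left of poor tumours in blue, and bars are means of 3. The Tcf7 to Trac ratio averaged 2.13 ± 0.99 in rich and 3.73 ± 1.07 in poor tumours (SD, n = 12 each), and the Foxp3 to Cd4 ratio -1.62 ± 0.51 in rich and -2.27 ± 0.55 in poor tumours.

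Across all genes, edgeR's quasi-likelihood test with treatment as a covariate called 1162 of 16029 genes (7.25%), 692 higher (4.32%) and 470 lower (2.93%) in rich tumours. These tests ask which genes vary with T cell RNA among tumours of the same treatment, and their p-values are set against the variation among tumours ranked alike. In the 20 tumours without high Acta1, 334 were called, 264 higher and 70 lower, and 304 of them were among the 1162. With the mean level of the muscle genes as a covariate, 335 were called, 292 higher and 43 lower. The count fell to 695 without BRQ+PD-1 replicate 4 and reached 2292 without BRQ+IgG2a replicate 4. A fold change of at least 2 was found for 135 of the higher and 57 of the lower genes, and the median log2 fold change of all tested genes was 0.01. All rich tumours lay above all poor tumours in each of the 4 treatments for 31 genes (0.193%) and below them for 18 genes (0.112%). No such share is given for separation in fewer than 4 treatments, so those statements on single genes are a description.

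Genes that interferon gamma raises were higher in rich tumours almost as a whole list. Of 32 measured, 28 rose and none fell in rich tumours, with a median log2 fold change of 0.67; 18 rose in the 20 tumours and 25 with the muscle covariate. Batf2, a transcription factor of interferon-stimulated macrophages, had 12.4, 24.5 and 45.9 CPM in rich tumours against 6.82, 14.9 and 19.6 CPM in poor tumours. The ranges overlapped across treatments, but inside 3 of 4 treatments no poor tumour reached a rich one, and the log2 fold change was 0.85 ± 0.14 (adjusted p = 0.00285, and 0.0260 in the 20 tumours). Psmb10, an immunoproteasome subunit, averaged 105 ± 32.1 CPM in rich and 61.7 ± 19.3 CPM in poor tumours, a log2 fold change of 0.76 ± 0.13 (adjusted p = 0.0034). Ifi47, an interferon-inducible GTPase, averaged 102 ± 39.4 CPM in rich and 60.4 ± 19.6 CPM in poor tumours (0.70 ± 0.12, adjusted p = 0.0034). Both kept their call in the 20 tumours and in all 24 fits without 1 library. Irf1, a transcription factor and early target of the pathway, rose by 0.59 ± 0.11; it was picked out after its values were seen. The 4 members not called were the receptor chains Ifngr1 (0.14 ± 0.05) and Ifngr2 (0.14 ± 0.08), the kinase Jak2 (-0.17 ± 0.09) and the DNA sensor Aim2 (0.22 ± 0.16).

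Guanylate-binding proteins coat intracellular pathogens and their genes are strong targets of interferon gamma. Gbp2b, which is in none of the lists but is among the 8 largest increases, had 0.306, 15.9 and 32.1 CPM in rich tumours and 0.377, 2.91 and 6.26 CPM in poor tumours. In BRQ+PD-1 it stood at 25.6, 18.8 and 11.5 CPM in rich and 6.26, 5.55 and 2.95 CPM in poor tumours, and in BRQ+IgG2a at 32.1, 30.6 and 14.03 CPM in rich against 6.22, 3.30 and 0.881 CPM in poor tumours. In those treatments the groups did not overlap, whereas the lowest rich tumour of IgG2a, at 0.306 CPM, and that of PD-1, at 1.78 CPM, lay below all 3 poor tumours of their groups. The log2 fold change was 2.21 ± 0.43 (adjusted p = 0.00617), and 1.87 in the 20 tumours (adjusted p = 0.0513). Gbp genes resemble each other closely and reads may be split between them, so single values are uncertain.

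Of 17 T cell attracting chemokines and receptors, 8 rose and none fell in rich tumours, at a median of 0.52 (log2 fold change), and 3 rose in the 20 tumours. Cxcl10, a ligand of CXCR3, had 24.7, 48.5 and 74.9 CPM in rich tumours against 10.2, 27.1 and 52.96 CPM in poor tumours, a log2 fold change of 0.83 ± 0.18 (adjusted p = 0.0094, and 0.0325 in the 20 tumours). Its groups did not overlap in IgG2a, with 54.1, 25.1 and 24.7 CPM in rich against 17.7, 12.6 and 10.2 CPM in poor tumours, nor in BRQ+PD-1. Cxcl9, another ligand of CXCR3, had 54.5, 183 and 351 CPM in rich tumours and 24.1, 113 and 182 CPM in poor tumours, 0.85 ± 0.19 on the log2 scale (adjusted p = 0.0118, and 0.0549 in the 20 tumours). Cxcl13, which draws B cells and follicular T cells, was scarce, at 0.221, 0.569 and 12.9 CPM in rich tumours against 0, 0.154 and 0.914 CPM in poor tumours, and rose by 2.79 ± 0.63 (adjusted p = 0.0118). It rose by 1.97 in the 20 tumours (adjusted p = 0.0437) and by 1.84 without PD-1 replicate 6, which held the 12.9 CPM against at most 2.42 CPM in the other rich tumours. The receptor gene Cxcr6 of effector T cells rose by 1.01 ± 0.22. T cells may carry receptors of this list, and their part in its counts was not tested.

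The promoters of Gbp2b and Cxcl10 are printed as examples of interferon targets among the genes that rose, with a match to the motif that interferon-activated factors bind, the interferon-stimulated response element (ISRE). They come from RefSeq on GRCm38.p6, run from 250 bases before to 50 after the start, and lie at chr3:142594597-142594896 on the plus strand (Gbp2b) and chr5:92348840-92349139 on the minus strand (Cxcl10). Capitals mark the match to this motif, read as GAAA and GAAA with any 2 bases between them, searched on both strands.
Gbp2b: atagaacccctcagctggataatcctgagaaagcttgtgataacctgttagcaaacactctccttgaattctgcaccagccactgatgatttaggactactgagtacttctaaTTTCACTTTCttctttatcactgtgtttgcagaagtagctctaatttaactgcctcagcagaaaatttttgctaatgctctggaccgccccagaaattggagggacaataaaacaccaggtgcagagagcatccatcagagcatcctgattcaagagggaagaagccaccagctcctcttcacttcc
Cxcl10: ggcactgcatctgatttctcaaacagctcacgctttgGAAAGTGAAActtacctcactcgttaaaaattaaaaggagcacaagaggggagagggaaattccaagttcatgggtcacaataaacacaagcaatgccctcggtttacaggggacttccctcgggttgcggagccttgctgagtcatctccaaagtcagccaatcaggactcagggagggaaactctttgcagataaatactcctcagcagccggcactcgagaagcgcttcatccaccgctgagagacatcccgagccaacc
The match begins 137 bases before the start of Gbp2b and 213 bases before that of Cxcl10, and 3.44% of 32851 RefSeq windows of the same length held one. A match describes the letters and not a bound site.

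MHC class II presentation, which shows peptides to CD4 T cells, had 8 of 11 genes higher and none lower in rich tumours, a median log2 fold change of 0.88, and 2 higher in the 20 tumours (7 with the muscle covariate). H2-DMa, a subunit of the molecule that loads class II with peptide, had 31.6, 80.1 and 165 CPM in rich tumours and 19.9, 40.3 and 87.1 CPM in poor tumours. Every rich tumour lay above every poor tumour of its treatment in all 4 treatments, and the log2 fold change was 0.86 ± 0.19 (adjusted p = 0.00945, and 0.0573 in the 20 tumours). Its partner H2-DMb1 rose by 0.77 ± 0.15 (adjusted p = 0.00459, and 0.0325 in the 20 tumours). H2-Ab1, a class II chain, had 114, 568 and 1459 CPM in rich tumours and 107, 281 and 612 CPM in poor tumours, rising by 0.99 ± 0.24 (adjusted p = 0.0164, and 0.0733 in the 20 tumours). Ctss, the protease that trims the class II chaperone, averaged 508 ± 174 CPM in rich and 333 ± 96.5 CPM in poor tumours and rose by 0.56 ± 0.11. The macrophage markers Adgre1, Csf1r and C1qa also had the higher summed median in rich tumours, with 853 CPM in rich and 660 CPM in poor tumours, and their part in the class II difference was not tested.

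Of 19 genes that serve MHC class I, 11 were higher and none lower, a median log2 fold change of 0.39, and 5 higher in the 20 tumours. Tapbpl, an editor of the peptides that class I carries, had 20.99, 38.9 and 55.7 CPM in rich tumours and 16.3, 23.3 and 32.4 CPM in poor tumours, with no overlap inside any of the 4 treatments. Its log2 fold change was 0.63 ± 0.09 (adjusted p = 0.00243, and 0.0196 in the 20 tumours). Tap1, a subunit of the peptide transporter, averaged 205 ± 72.3 CPM in rich and 133 ± 37.7 CPM in poor tumours (0.58 ± 0.10, adjusted p = 0.0034), and Tapbp, which bridges transporter and class I, averaged 379 ± 96.0 CPM in rich and 264 ± 57.7 CPM in poor tumours (0.49 ± 0.08, adjusted p = 0.00285). Both kept their call in the 20 tumours. H2-K1, a classical class I heavy chain, averaged 1885 ± 467 CPM in rich and 1419 ± 336 CPM in poor tumours and rose by 0.39 ± 0.09 (adjusted p = 0.0121, and 0.0831 in the 20 tumours). The light chain B2m was not called, at 2058 ± 430 CPM in rich and 1983 ± 472 CPM in poor tumours, a log2 fold change of 0.03 ± 0.09.

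The type I interferon list had 30 tested genes, of which 12 rose and none fell in rich tumours, a median log2 fold change of 0.39, and 4 rose in the 20 tumours. Sp100, a nuclear body protein, averaged 63.7 ± 16.7 CPM in rich and 46.4 ± 10.7 CPM in poor tumours and rose by 0.43 ± 0.07 (adjusted p = 0.00285). Oas2, an antiviral enzyme activated by double-stranded RNA, averaged 13.9 ± 5.07 CPM in rich and 8.28 ± 3.27 CPM in poor tumours and rose by 0.75 ± 0.15 (adjusted p = 0.00741). Ifit3 and Isg15, often used as readouts of type I interferon, were not called, with fold changes of 0.39 ± 0.23 and 0.47 ± 0.18. The list shares targets with interferon gamma.

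**Figure D3:**
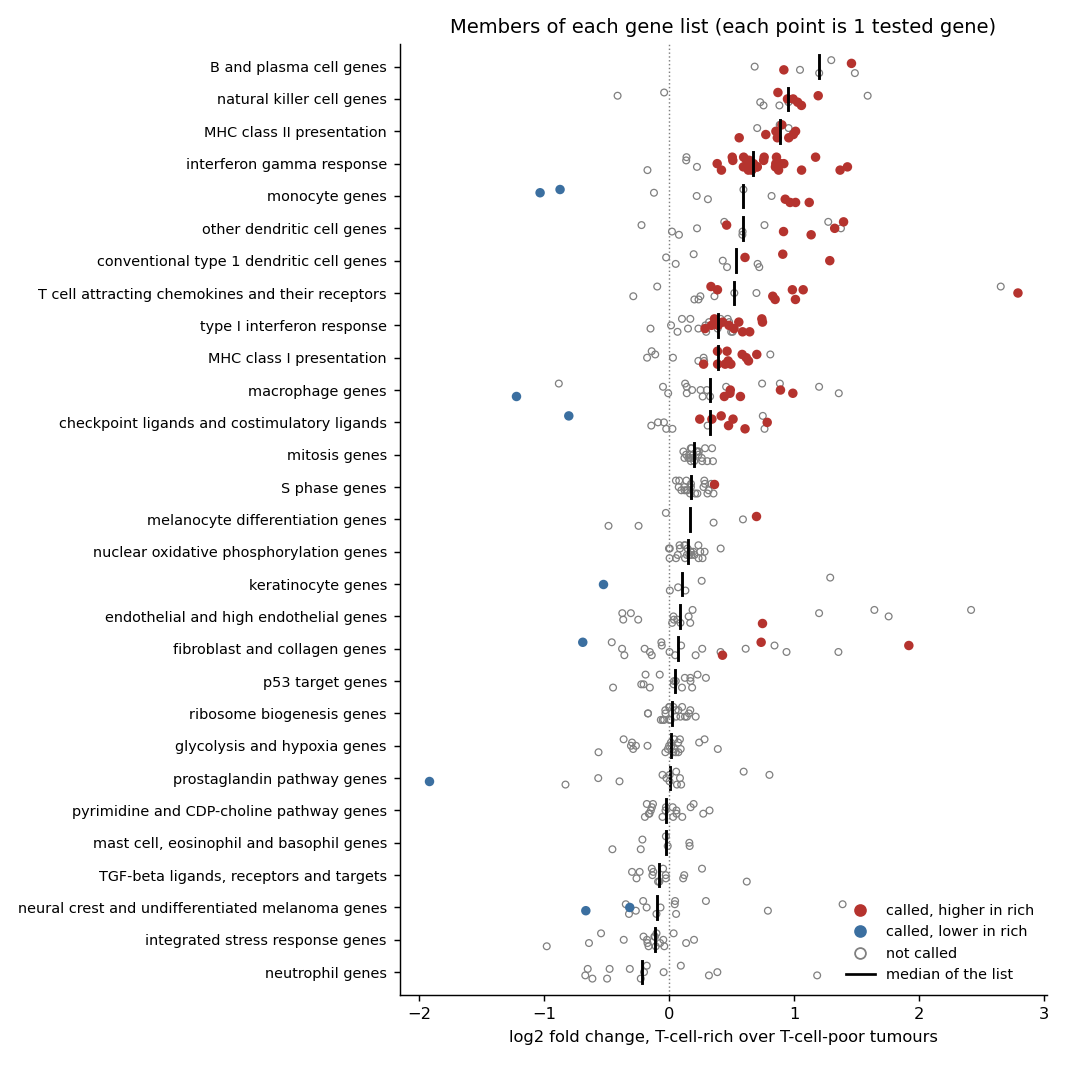
Log2 fold change of each tested member of 29 gene lists, rich over poor tumours; filled points were called at an adjusted p under 0.05, red higher and blue lower, open points were not called, and bars are list medians. The interferon gamma list has 28 of 32 members called on the right, while the lists of neutrophils, glycolysis, ribosome biogenesis and pyrimidine synthesis have none called.

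The gene of PD-L1 was not called. Cd274 had 12.05, 41.5 and 76.6 CPM in rich tumours and 13.8, 33.6 and 87.1 CPM in poor tumours, which overlapped in all 4 treatments, and its log2 fold change was -0.02 ± 0.20 (adjusted p = 0.949), with 0.28 under limma voom. A p of this size does not show that the levels are equal. Of 16 checkpoint and costimulatory ligands, 7 rose and 1 fell in rich tumours, a median log2 fold change of 0.32, with 1 and 0 in the 20 tumours. Cd40, the costimulatory receptor of antigen-presenting cells, averaged 8.60 ± 3.46 CPM in rich and 4.89 ± 1.59 CPM in poor tumours and rose by 0.78 ± 0.14 (adjusted p = 0.00407, and 0.0260 in the 20 tumours). Il18bp, a soluble brake on interleukin 18, rose by 0.61 ± 0.14, and Tnfrsf14, the ligand of BTLA, by 0.47 ± 0.10, with adjusted p-values of 0.0560 and 0.0551 in the 20 tumours. Pvr, the ligand of TIGIT, was the member that fell, at 71.9 ± 26.9 CPM in rich and 116 ± 46.2 CPM in poor tumours (-0.80 ± 0.23, adjusted p = 0.0398, and 0.0861 in the 20 tumours).

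Natural killer cells share cytotoxic genes with T cells, and 6 of 14 of their genes rose and none fell in rich tumours, a median log2 fold change of 0.95, with 3 in the 20 tumours. The defining markers Ncr1 and Klrb1c together had 0.832, 1.31 and 2.72 CPM in rich tumours and 0.375, 0.670 and 2.14 CPM in poor tumours. Neither was called, and neither was at 0 in any tumour. Klrk1, the activating receptor NKG2D that CD8 T cells also carry, averaged 7.82 ± 4.74 CPM in rich and 3.34 ± 2.29 CPM in poor tumours and rose by 1.19 ± 0.22 (adjusted p = 0.00416). Klrc1, an inhibitory receptor of the same lectin family, rose by 1.06 ± 0.23 (adjusted p = 0.00984, and 0.0559 in the 20 tumours).

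Dendritic cells prime T cells. Of 10 genes of the type 1 lineage, which presents antigen to CD8 T cells, 3 rose and none fell in rich tumours, a median log2 fold change of 0.53. Batf3, a transcription factor the lineage needs, had 1.31, 2.61 and 9.29 CPM in rich tumours and 0.621, 1.27 and 3.24 CPM in poor tumours, rising by 1.28 ± 0.24 (adjusted p = 0.00449, and 0.0405 in the 20 tumours), and Irf8 averaged 57.1 ± 15.8 CPM in rich and 36.7 ± 9.06 CPM in poor tumours, rising by 0.61 ± 0.11 (adjusted p = 0.0034). Summed over the defining markers Xcr1, Clec9a and Flt3, the level was 2.76, 6.62 and 10.4 CPM in rich tumours against 1.71, 3.87 and 7.14 CPM in poor tumours, with Xcr1 itself not called (0.72 ± 0.25). Among 15 other dendritic cell genes, 5 rose and none fell. Ccl22, a chemokine that draws CCR4-bearing T cells, rose by 0.91 ± 0.21 (adjusted p = 0.0584 in the 20 tumours), and Clec10a, a lectin of type 2 dendritic cells, by 1.39 ± 0.32 (adjusted p = 0.0121, and 0.0398 in the 20 tumours). In the 20 tumours, 2 genes rose in each of these lists.

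The macrophage list had 19 positive and 4 negative fold changes. Of 23 genes, 6 rose and 1 fell in rich tumours, with 2 and 0 in the 20 tumours, and the median log2 fold change was 0.33. Fcgr4, an activating Fc receptor that interferon gamma raises, averaged 67.4 ± 33.9 CPM in rich and 32.0 ± 15.1 CPM in poor tumours and rose by 0.99 ± 0.18 (adjusted p = 0.00422). C1qa, of the complement component C1q, had 318, 471 and 691 CPM in rich tumours against 185, 320 and 404 CPM in poor tumours and rose by 0.57 ± 0.13 (adjusted p = 0.0121, and 0.0646 in the 20 tumours). Adgre1, Csf1r and C1qa together had 608, 853 and 1305 CPM in rich and 360, 660 and 887 CPM in poor tumours. The member that fell was Spp1, which encodes osteopontin and is also made by tumour cells. It had 1324, 2360 and 6547 CPM in rich tumours and 2549, 5037 and 16448 CPM in poor tumours, a log2 fold change of -1.22 ± 0.29 (adjusted p = 0.0154, and 0.0589 in the 20 tumours), with no overlap inside 3 of the 4 treatments.

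Of 11 monocyte genes, 4 rose and 2 fell in rich tumours, with 2 and 0 in the 20 tumours. Ly6c2, a surface protein of inflammatory monocytes, averaged 6.999 ± 2.91 CPM in rich and 3.37 ± 2.05 CPM in poor tumours and rose by 1.12 ± 0.21 (adjusted p = 0.00422), and Ms4a4c rose by 0.97 ± 0.18. The members that fell were Ace, angiotensin-converting enzyme (-0.87 ± 0.22, adjusted p = 0.0219, and 0.0945 in the 20 tumours), and Nr4a1, a nuclear receptor of patrolling monocytes that many cells induce on stimulation (-1.03 ± 0.30, adjusted p = 0.0405, and 0.0950 in the 20 tumours). Of 14 neutrophil genes, edgeR called 0 (3 at an unadjusted p under 0.05), limma voom 0 and DESeq2 1, with a median log2 fold change of -0.22. Of 7 mast cell, eosinophil and basophil genes, each of the 3 tools called 0 (0 at an unadjusted p under 0.05 in edgeR).

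B and plasma cell genes had 2 of 7 higher and none lower, and none called in the 20 tumours. Ighm, the heavy chain of IgM, had 6.50, 20.5 and 123 CPM in rich tumours and 3.13, 8.99 and 27.7 CPM in poor tumours, rising by 1.46 ± 0.38 (adjusted p = 0.0242), against 0.86 in the 20 tumours (adjusted p = 0.102).

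The genes with the largest changes were mostly not immune genes. A2m, a protease inhibitor, rose by 2.18 ± 0.47, and Cthrc1, a secreted protein of activated fibroblasts, by 1.92 ± 0.50. Both kept their call in the 20 tumours, but Cthrc1 lost it with the muscle covariate (adjusted p = 0.0841) and without ranks 3 and 4 (0.0983). Slc43a1, an amino acid transporter, rose by 2.43 ± 0.68 and Mfap5, of elastic microfibrils, by 1.602 ± 0.48; in the 20 tumours Slc43a1 was at 1.47 (adjusted p = 0.0589), and with the muscle covariate Mfap5 was at 1.06 and not called. Some of these calls were lost when single libraries were left out. Slc43a1 was called in 13 of 24 such fits (adjusted p up to 0.0978), Mfap5 in 5 (0.114) and Cthrc1 in 23 (0.0520), each with its highest p without PD-1 replicate 6. Ikzf3, the lymphoid transcription factor Aiolos, was the immune gene among the 8 largest beside Cxcl13 and Gbp2b. It had 0.987, 4.28 and 9.09 CPM in rich and 0.310, 1.14 and 3.55 CPM in poor tumours, with no overlap inside any treatment. Its log2 fold change was 1.56 ± 0.30 (adjusted p = 0.0048). T cells are lymphocytes, the part of T cells in this rise was not tested, and its p is a description.

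Poor tumours had more RNA of Ptgs2, which encodes cyclooxygenase 2, the inducible enzyme of prostaglandin synthesis. It had 18.5, 139 and 267 CPM in rich tumours and 75.2, 308 and 1187 CPM in poor tumours. In IgG2a the values were 211, 204 and 86.2 CPM in rich against 536, 393 and 254 CPM in poor tumours, and in BRQ+IgG2a 75.0, 30.7 and 18.5 CPM in rich against 883, 210 and 75.2 CPM in poor tumours. The groups did not overlap in those treatments but did in PD-1 and BRQ+PD-1. The log2 fold change was -1.92 ± 0.49 (adjusted p = 0.0230), with 0.0587 without BRQ+PD-1 replicate 1 and 0.0829 in the 20 tumours. Of the 14 tested prostaglandin genes edgeR called no other (5 at an unadjusted p under 0.05), limma voom called 0, with Ptgs2 not called either, and DESeq2 called 4.

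Ptgfr, the receptor for prostaglandin F2 alpha, was among the 8 largest decreases. In BRQ+IgG2a it stood at 3.24, 1.93 and 1.88 CPM in rich and 41.5, 20.7 and 10.2 CPM in poor tumours, and in BRQ+PD-1 at 17.4, 16.8 and 5.53 CPM in rich against 68.1, 23.4 and 19.1 CPM in poor tumours. PD-1 tumours had 8.29, 6.01 and 5.40 CPM when rich and 28.4, 13.9 and 13.8 CPM when poor, and IgG2a tumours 10.3, 9.36 and 5.65 CPM when rich and 18.7, 17.0 and 11.8 CPM when poor. Every rich tumour lay below every poor tumour of its treatment in all 4 treatments. The log2 fold change was -1.81 ± 0.35 (adjusted p = 0.00635), and the call held in all 24 fits without 1 library and in the 20 tumours (-1.82, adjusted p = 0.0360).

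Akr1c18, a steroid dehydrogenase that inactivates progesterone, also did not overlap inside any treatment, with 0.216, 22.4 and 67.5 CPM in rich tumours and 23.9, 86.1 and 458 CPM in poor tumours. Its log2 fold change was -2.83 ± 0.71 (adjusted p = 0.0216), with 0.0563 without BRQ+PD-1 replicate 1 and 0.0549 in the 20 tumours. Ereg, the EGF receptor ligand epiregulin, had 11.7, 76.9 and 104 CPM in rich and 36.3, 134 and 431 CPM in poor tumours (-1.76 ± 0.42, adjusted p = 0.0178, and 0.0584 in the 20 tumours). Trpm6, a magnesium channel, and Sgip1, an endocytic adaptor, were scarce and changed by -1.52 ± 0.26 (adjusted p = 0.00335) and -1.81 ± 0.37 (adjusted p = 0.00749), and both kept their call in the 20 tumours. Sgip1 lost it under limma voom (-0.98, adjusted p = 0.0673) and with the muscle covariate (-1.38, adjusted p = 0.0535). Dmp1, a matrix protein of bone and dentin, and Sh2d6, an adaptor protein, changed by -2.10 ± 0.60 and -2.11 ± 0.63, but were called in 14 and 8 of the 24 fits without 1 library and in neither case in the 20 tumours.

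**Figure D4:**
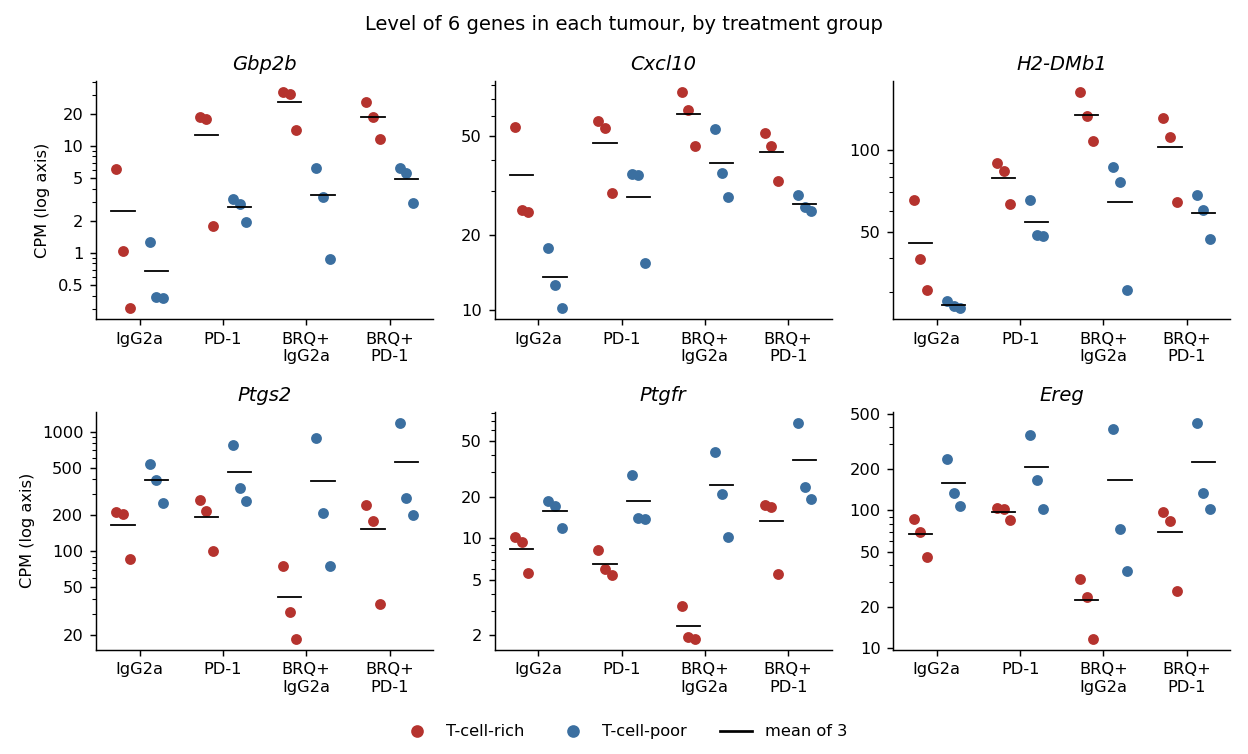
CPM (log axis) of 6 genes in each of 24 tumours by treatment, rich tumours in red at the left of poor tumours in blue, bars the means of 3. Gbp2b, Cxcl10 and H2-DMb1 averaged higher in rich tumours of every treatment and Ptgs2, Ptgfr and Ereg lower, with Ptgfr between 1.88 and 17.4 CPM in rich tumours and between 10.2 and 68.1 CPM in poor tumours.

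Lists of the tumour cell and the stroma had some called members, to be set beside the 7.25% called among all tested genes. Of 15 neural crest and undifferentiated melanoma genes, 2 fell and none rose in rich tumours, with 1 lower and 1 higher in the 20 tumours. Zeb1, a transcription factor of the mesenchymal state, averaged 136 ± 24.8 CPM in rich and 166 ± 17.1 CPM in poor tumours (-0.32 ± 0.09, adjusted p = 0.0299, and 0.0928 in the 20 tumours), and Twist2, of the same kind, averaged 7.97 ± 1.44 CPM in rich and 12.4 ± 4.17 CPM in poor tumours (-0.67 ± 0.17, adjusted p = 0.0197, and 0.0494). Of 6 measured melanocyte genes, Rab27a, which moves pigment organelles and also cytotoxic granules, rose by 0.69 ± 0.17 (adjusted p = 0.0178, and 0.0830 in the 20 tumours). Of 22 fibroblast and collagen genes, 3 rose and 1 fell (median log2 fold change 0.07). In the 20 tumours 1 of them rose and 0 fell. Thbs2, thrombospondin 2, fell (-0.69 ± 0.17, adjusted p = 0.0194) and Acta2, smooth muscle actin, rose by 0.74 ± 0.20 (adjusted p = 0.0322), neither called in the 20 tumours. Icam1, the ligand that leukocyte integrins bind, was the called gene among 17 of the endothelium, at 19.6 ± 6.57 CPM in rich and 11.6 ± 3.67 CPM in poor tumours (0.74 ± 0.15, adjusted p = 0.00598, and 0.0394 in the 20 tumours). All 8 tested adipocyte genes had positive fold changes, with a median log2 of 1.98 (0.61 in the 20 tumours), and 5 had an unadjusted p under 0.05. The edgeR test called 1, Lipe, hormone-sensitive lipase (0.35 ± 0.08, adjusted p = 0.0139, and 0.0882 in the 20 tumours), limma voom called 2 and DESeq2 3. The adipocyte markers Adipoq and Plin1 together had 0, 0.924 and 16.4 CPM in rich tumours and 0, 0.1402 and 3.41 CPM in poor tumours, and the part of fat tissue in the other differences was not tested. Of 6 keratinocyte genes, Lgals7, galectin 7, fell (-0.53 ± 0.16, adjusted p = 0.0498, and 0.131 in the 20 tumours). The keratinocyte markers Krt5 and Krt14 had no count in 21 and 22 of the 24 tumours.

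Few genes of proliferation and metabolism were called. All 22 mitosis genes and all 22 S phase genes had positive fold changes, with medians of 0.20 and 0.17, but edgeR called 0 and 1 (6 and 8 at an unadjusted p under 0.05), limma voom 0 and 0, and DESeq2 0 and 3. Mki67, the proliferation antigen, averaged 299 ± 72.0 CPM in rich and 257 ± 67.3 CPM in poor tumours (0.20 ± 0.15, adjusted p = 0.390), and Cdc45, of the replicative helicase, was the gene called (0.36 ± 0.10, adjusted p = 0.0282, and 0.0918 in the 20 tumours). The edgeR test called none of 23 glycolysis and hypoxia genes, 24 of nuclear oxidative phosphorylation, 22 of ribosome biogenesis, 19 of pyrimidine and CDP-choline synthesis, 16 p53 targets, 18 of the integrated stress response and 15 of TGF-beta signalling, with 2, 9, 3, 3, 3, 3 and 2 at an unadjusted p under 0.05. In the same order DESeq2 called 0, 2, 0, 0, 1, 1 and 0 of them and limma voom 0, 0, 0, 0, 0, 0 and 1. Dhodh, the target of brequinar, averaged 13.5 ± 1.68 CPM in rich and 12.4 ± 1.80 CPM in poor tumours, a log2 fold change of 0.10 ± 0.08 (adjusted p = 0.404).

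Inside a single treatment, with 3 rich against 3 poor tumours, edgeR called 0 genes (0.00%) in each of the 4 treatments, while 2345 (14.6%) for IgG2a, 964 (6.01%) for PD-1, 1755 (10.9%) for BRQ+IgG2a and 1731 (10.8%) for BRQ+PD-1 had an unadjusted p under 0.05. Without IgG2a replicate 1 the count inside IgG2a was 356, without PD-1 replicate 6 it was 1, and without BRQ+IgG2a replicate 2 the count inside BRQ+IgG2a was 15. No other tool was run inside single treatments. The edgeR test of whether the difference depended on treatment called 0 genes (830 at an unadjusted p under 0.05, 5.18%). A dependence on brequinar, averaged over both antibodies, was called for 0 genes (1462 at an unadjusted p under 0.05, 9.12%). One on anti-PD-1, averaged over tumours with and without brequinar, was called for 0 (374, 2.33%). Of the 692 higher genes, 689 were higher in each of the 4 treatments, and of the 470 lower genes, 461 were lower in each. Over all tested genes, called or not, 16.1% were higher and 16.4% lower in each of the 4 treatments. The calls were made on these same tumours, so this agreement in direction is largely fixed by the selection and is a description.

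The median log2 fold change of the interferon gamma list was 0.82 for IgG2a tumours, 0.52 for PD-1, 0.86 for BRQ+IgG2a and 0.49 for BRQ+PD-1. MHC class II genes had medians of 0.78, 0.74, 1.15 and 0.73 in the same order. The natural killer list had 0.94, 0.74, 1.17 and 0.87, and the T cell attracting chemokines 0.72, 0.59, 0.60 and 0.37. All of these were positive in each treatment. The B cell list ranged from 0.33 in BRQ+IgG2a to 2.45 in PD-1. Muscle genes ran in both directions, with medians of 8.41 for IgG2a, 3.78 for PD-1, -3.36 for BRQ+IgG2a and 3.27 for BRQ+PD-1.

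**Figure D5:**
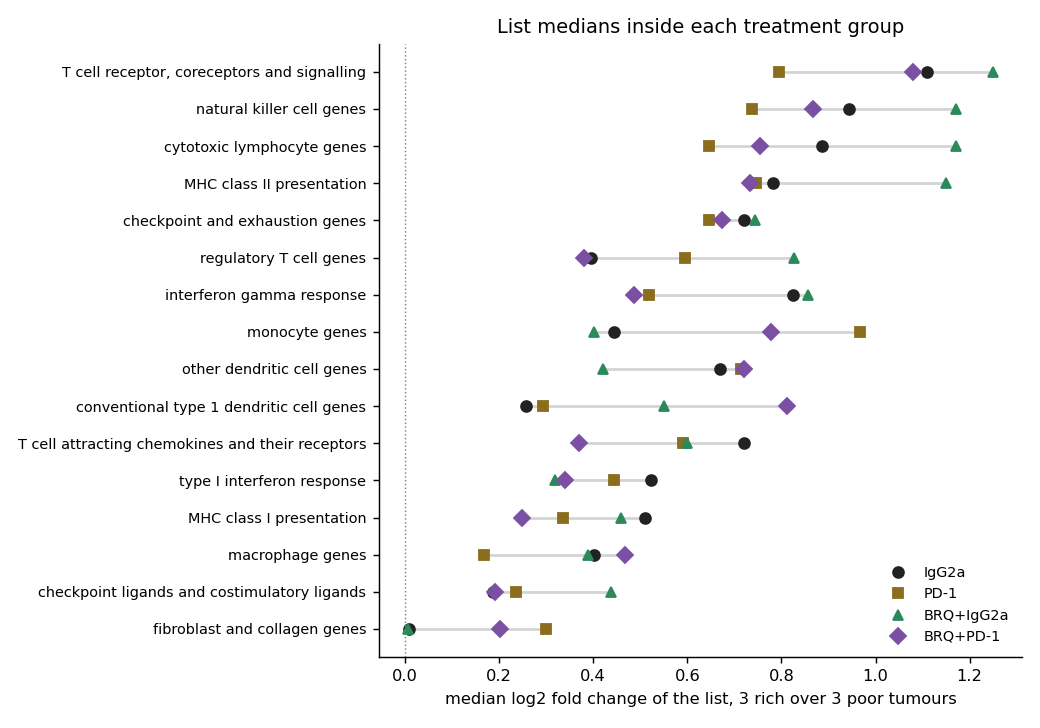
Median log2 fold change of the members of 16 gene lists, 3 rich over 3 poor tumours inside each treatment; each symbol is 1 treatment and the line joins the lowest and the highest. The interferon gamma list lies between 0.49 and 0.86, and the list of T cell receptor genes between 0.79 and 1.25.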

How the data were processed

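Bulk RNA sequencing of 24 tumours was deposited by the authors as raw counts per gene. The submitters' processing notes name HISAT2 2.2.1, StringTie 2.2.1, Trim Galore 0.6.7 and the build GRCm39, with no order or role. Sources used here name no counting program, annotation or strand setting. The FPKM and TPM tables were not used. Symbols came from GENCODE M21 for 52081 of 55414 gene IDs.

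Counts were divided by each library's total (19106205 to 34282319) to give CPM, and tumours were ranked as described. The members, gene lists and tests were chosen with earlier results of these data known. Genes were tested with edgeR 4.0.16 (robust quasi-likelihood, TMM, filterByExpr, treatment as covariate) in R 4.3.3, with Benjamini-Hochberg adjustment over 16029 genes and a threshold of 0.05. Fits inside treatments and the interaction used a mean for each treatment and rank class. Ratios were tested by exact permutation. Alternatives included DESeq2 1.42.0 and limma 3.58.1 voom. The edgeR script was tested on simulated data. Single genes of the T cell lists get no printed p, because they chose the tumours or come from the same cells. Counts of called members of those lists are a description. Ikzf3, Klrk1 and Klrc1 are outside those lists but T cells may carry them too, so their printed p is likewise a description. Ratios between T cell genes that did not rank the tumours were tested, except that no p is printed for the ratios to Trac. The printed p-values of ratios are a description, because the genes of the ratios also differed with the ranking.

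Named were the 8 largest called changes each way at a mean of at least 1 CPM, without predicted genes, receptor segments and T cell list genes; up to 3 called members of each other list by adjusted p, or its 2 most abundant; the 4 most abundant members of each T cell list; the 2 smallest interaction p-values, here predicted genes that are not described; and Dhodh, Cd274, H2-K1, H2-Ab1, Cxcl9 and Ptgs2. Other genes were named after their values were seen. Some genes that this rule names are not reported here. The labels number the samples as biological replicates but do not say that numbers were paired or that tumours came from separate mice. The p-values therefore measure the spread between these samples. Over 60 pairs of replicates the variance was 9.89 to 231 times the sampling noise. The technical share of that spread was not tested. A comparison of promoter motifs between gene sets was void, because 11409 of 16029 tested genes had a promoter in the RefSeq table, under 80%.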

Additional observations from a re-analysis of the deposited data

Results flagged for a closer look

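In IgG2a, replicate 2 held 15.36 CPM of Cd3d, Cd3e and Cd3g together and the next tumour 7.35 CPM, a gap of 0.671 of the range of the 6 tumours, so this sample lies far from the others. The library is also one of the 4 with high Acta1, and the part of muscle tissue in the value was not tested. The same check was run on 24 groups of 6, and chance flags about 1 group in 20.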

How the results depend on the processing

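The main test called 1162 genes rich against poor (59.6% higher). DESeq2 called 2152, of which 1161 were among the 1162, and the centred CD3 level as a covariate 4874 (46.1% higher), of which 1135 were. The fit without the 4 muscle-rich libraries called 334 (79.0% higher), with 304 shared, and the fit with the muscle covariate 335 (87.2% higher), with 321 shared. Limma voom called 979 (73.0% higher) and leaving out ranks 3 and 4 gave 1167, of which 752 were shared. No filter gave 798, with 68.9% higher. Leaving out single libraries gave 695 to 2292. The replicate block left 0 (2760 at an unadjusted p under 0.05 in edgeR). Whether the numbers mark a pairing was not settled. The 36 correlations between same-numbered tumours ran from -0.64 to 0.444, and 3 of 24 tumours correlated best with their own number. Such correlations could miss an effect shared by only some genes. All 4 tumours numbered 5 were poor. Inside IgG2a the count ran from 0 to 356 without single libraries, and inside BRQ+IgG2a from 0 to 15. Cd8a to Cd4 had a difference of 0.4918 without the 4 libraries and 0.5228 to 0.7137 without single libraries, and Foxp3 to Cd4 had 0.2604 with 1 CPM added and 0.6838 without the 4 libraries. Prf1 to Cd8a had -0.6777 without ranks 3 and 4 and -0.5157 to -0.2752 without single libraries, and Pdcd1 to Trac -0.4261 to -0.1616. The cause of these changes was not tested. Of 65 named genes, none that was called changed direction, while Cd274, which was not called, ran from -0.12 without the 4 libraries to 0.28 under voom; 27 lost their call without the 4 libraries, 25 with the muscle covariate, 14 without ranks 3 and 4, 10 under voom and 62 under the block. T cell genes under 1 CPM rest on few reads, which limits their precision.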

Other observations

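Some gene families, counted here without members of the T cell lists, were chosen after their values were seen. Lymphocytes use some of these families, and the part of T cells in their counts was not tested. Receptor chains of the interleukin 2 and interleukin 12 families had 7 of 9 members higher and none lower in rich tumours, at a median of 0.81 (log2 fold change), and 5 were higher in the 20 tumours without high Acta1. Il2rb, the beta chain shared by the interleukin 2 and 15 receptors, averaged 32.2 ± 17.9 CPM in rich and 14.4 ± 8.72 CPM in poor tumours (SD, n = 12 each), and Il12rb1 averaged 25.1 ± 9.94 CPM in rich and 11.1 ± 4.96 CPM in poor tumours. Of 8 Gimap genes, GTPases of lymphocyte survival, 5 were higher and none was lower (4 and 0 in the 20 tumours), with Gimap7 at 2.69 ± 1.41 CPM in rich and 0.907 ± 0.557 CPM in poor tumours. Of 7 leukocyte integrin genes 3 were higher, and 3 in the 20 tumours, among them Itgal at 53.6 ± 18.1 CPM in rich and 34.6 ± 9.33 CPM in poor tumours.

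Ligands of the EGF receptor had 2 of 5 members lower in rich tumours and none higher, and none called in the 20 tumours. They were Ereg and Btc, with Btc at 39.3 ± 15.2 CPM in rich and 61.0 ± 21.1 CPM in poor tumours. Of 14 Wnt ligands and secreted inhibitors, 3 were lower, 1 was higher and the other 10 were not called. In the 20 tumours 1 was lower, Wnt10a, and 0 higher. Notum, which inactivates Wnt proteins, averaged 22.6 ± 8.94 CPM in rich and 37.6 ± 13.5 CPM in poor tumours. Wnt10b averaged 0.510 ± 0.485 CPM in rich and 0.144 ± 0.14 CPM in poor tumours. Neither Notum nor Wnt10b kept its call in the 20 tumours.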
